A study of Mus musculus with 3 samples.

Results

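The Il1r1 to Il18rap cluster is a run of 5 related receptor genes on mouse chromosome 1: Il1r1, Il1rl2, Il1rl1, Il18r1 and Il18rap, in that order. It was taken as all reads between positions 40270000 and 40620000 of the mm9 build, an interval of 350 kb that held 4 of the 15684 H3K4me3 regions and 17 of the 26908 phospho-STAT3 sites found in the genome. The 5 genes follow each other with no other protein-coding gene between them in the RefSeq table, with Il1r2 before and Slc9a4 after. Chromatin immunoprecipitation with sequencing (ChIP-seq) was done on naive CD4 T cells sorted from mice with a conditional Stat3 allele, cultured for 72 h on antibodies to CD3 and CD28 with TGF-b at 2.5 ng/ml and IL-6 at 10 ng/ml while IFN-g, IL-4 and IL-2 were blocked with antibodies, then given IL-6 again for 1 h. STAT3-deficient cells were Stat3fl/fl FoxP3-GFP with CD4-Cre, which deletes the allele from the CD4-expressing stage of T cell development on. WT cells were Stat3fl/fl FoxP3-GFP without Cre, so both genotypes carry the floxed allele and the reporter. There was 1 STAT3-deficient H3K4me3 library (12075963 reads), 1 WT H3K4me3 library (12281399 reads) and 1 WT phospho-STAT3 library (10127075 reads, antibody to STAT3 phosphorylated on Ser727). An input control, or phospho-STAT3 ChIP in cells lacking STAT3, was not analysed here.

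The receptors of this family share an extracellular part built of immunoglobulin domains and a cytoplasmic TIR domain that recruits the adaptor MyD88. Il1r1 encodes the signalling receptor for IL-1, a cytokine that promotes Th17 differentiation in the mouse. Il1rl2 encodes the receptor for IL-36, and Il1rl1 encodes ST2, the receptor for IL-33, best known on Th2 and regulatory T cells. Il18r1 and Il18rap encode the ligand-binding and accessory chains of the IL-18 receptor, a feature of IFN-g-producing Th1 cells. H3K4me3 is a histone mark of active gene starts, and STAT3 is the transcription factor through which IL-6 acts.

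Differences between genotypes rest on 1 library each, which allows no test, and the 95% intervals reflect counting alone. Without molecular identifiers, reads may not be independent molecules. The cluster was selected on its measured H3K4me3 reads by genotype and its phospho-STAT3 sites in these same libraries, so these values are a description. Cell type markers were not checked, because no annotation of mm9 was used here. Stat3 itself was not placed on mm9 either. Of 100693 intervals of over 2 kb without a STAT3-deficient read start, the one with the most reads in the poorer of both WT libraries was on chromosome 11 from 100753848 to 100757528. It held 0 STAT3-deficient H3K4me3, 28 WT H3K4me3 and 74 WT phospho-STAT3 reads and was picked for being empty. The next interval, on another chromosome, held 26 reads in each WT library and 0 STAT3-deficient reads. The RefSeq table places Stat3 on chromosome 11 of another build.

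RefSeq lists 9 promoters for the 5 genes (build GRCm38.p6, 250 bases before to 50 after each start, plus strand). They are shown for the genes with the clearest read patterns, before their values, because the phospho-STAT3 library had a site at the start of each. STAT dimers bind TTCNNNGAA, and this motif and its form with a longer spacer, TTCNNNNGAA, are in capitals. Both read the same on either strand.

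Il18r1, start 3 (chr1:40465756-40466055): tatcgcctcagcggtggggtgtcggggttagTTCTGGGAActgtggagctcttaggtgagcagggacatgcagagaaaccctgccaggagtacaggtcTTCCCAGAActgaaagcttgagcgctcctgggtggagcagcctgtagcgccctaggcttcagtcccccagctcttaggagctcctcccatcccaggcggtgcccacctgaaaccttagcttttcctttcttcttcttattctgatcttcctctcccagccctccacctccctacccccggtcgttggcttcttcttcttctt
Il18r1, start 1 (chr1:40465302-40465601): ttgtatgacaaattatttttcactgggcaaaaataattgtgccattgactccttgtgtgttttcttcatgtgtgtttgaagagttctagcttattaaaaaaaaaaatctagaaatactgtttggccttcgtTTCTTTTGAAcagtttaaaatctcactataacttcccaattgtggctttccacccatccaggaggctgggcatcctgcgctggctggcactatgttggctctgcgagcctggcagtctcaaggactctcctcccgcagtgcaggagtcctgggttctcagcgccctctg
Il18rap (chr1:40515112-40515411): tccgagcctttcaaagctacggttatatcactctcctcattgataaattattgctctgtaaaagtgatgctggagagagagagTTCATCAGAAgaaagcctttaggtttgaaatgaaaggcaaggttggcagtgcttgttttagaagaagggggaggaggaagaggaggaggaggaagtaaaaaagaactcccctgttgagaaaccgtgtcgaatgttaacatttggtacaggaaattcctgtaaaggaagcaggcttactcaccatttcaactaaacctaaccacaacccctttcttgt
Il1r1, start 1 (chr1:40224830-40225129): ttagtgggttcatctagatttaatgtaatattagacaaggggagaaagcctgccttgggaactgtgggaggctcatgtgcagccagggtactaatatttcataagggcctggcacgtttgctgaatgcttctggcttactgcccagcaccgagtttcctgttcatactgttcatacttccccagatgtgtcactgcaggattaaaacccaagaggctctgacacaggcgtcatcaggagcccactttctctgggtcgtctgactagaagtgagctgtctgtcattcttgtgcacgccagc

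TTCNNNGAA was present in 1 of the 9 promoters, that of the third Il18r1 start, which held it at 2 places. The matches were TTCTGGGAA, 219 bases before that start, and TTCCCAGAA, 152 bases before it. Counted from the first Il18r1 start, they lie 235 and 302 bases inside the gene. Of all 32851 promoters in the table, 8.30% held this motif and 0.457% held it more than once. The longer form TTCNNNNGAA was found as TTCTTTTGAA 119 bases before the first Il18r1 start, in a stretch that the promoter of the second start shares, and as TTCATCAGAA 167 bases before the Il18rap start. It occurred in 6.95% of all promoters. Neither form was in the promoters of Il1r1, Il1rl2 or Il1rl1, and the AP-1 motif TGANTCA, which 7.81% of all promoters hold, was in 0 of the 9. No overlap between the 2 STAT forms occurred in these promoters. CpG dinucleotides were above the median of all promoters in 2 of the 9: 14 CpG stood in that of the second Il1r1 start and 8 in that of the third Il18r1 start, but 5 at the first Il1r1 start, 4 at Il18rap, 3 at Il1rl2 and 1 at the first Il1rl1 start, against a median of 7 over all promoters. These sequences are of another build than the reads, so no motif was placed on a read position.

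The question put to both H3K4me3 libraries was which gene starts of the cluster differ in the mark with the Stat3 genotype. Il18r1 and Il1r1 went opposite ways. The IL-18 receptor gene Il18r1 had the strongest H3K4me3 of the cluster in STAT3-deficient cells, 3.47-fold above WT in its called region. Within 1 kb of its start, the width used for the other genes, it was 2.21-fold above WT. The mark at the start of the IL-1 receptor gene Il1r1 was above the mean background in WT cells and not above it in STAT3-deficient cells. In windows of 1 kb, the STAT3-deficient H3K4me3 library peaked at 79 reads, inside Il18r1, and the WT H3K4me3 library at 28 reads, directly after the Il1r1 start. The median window held 6 reads in each H3K4me3 library.

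**Figure D1:**
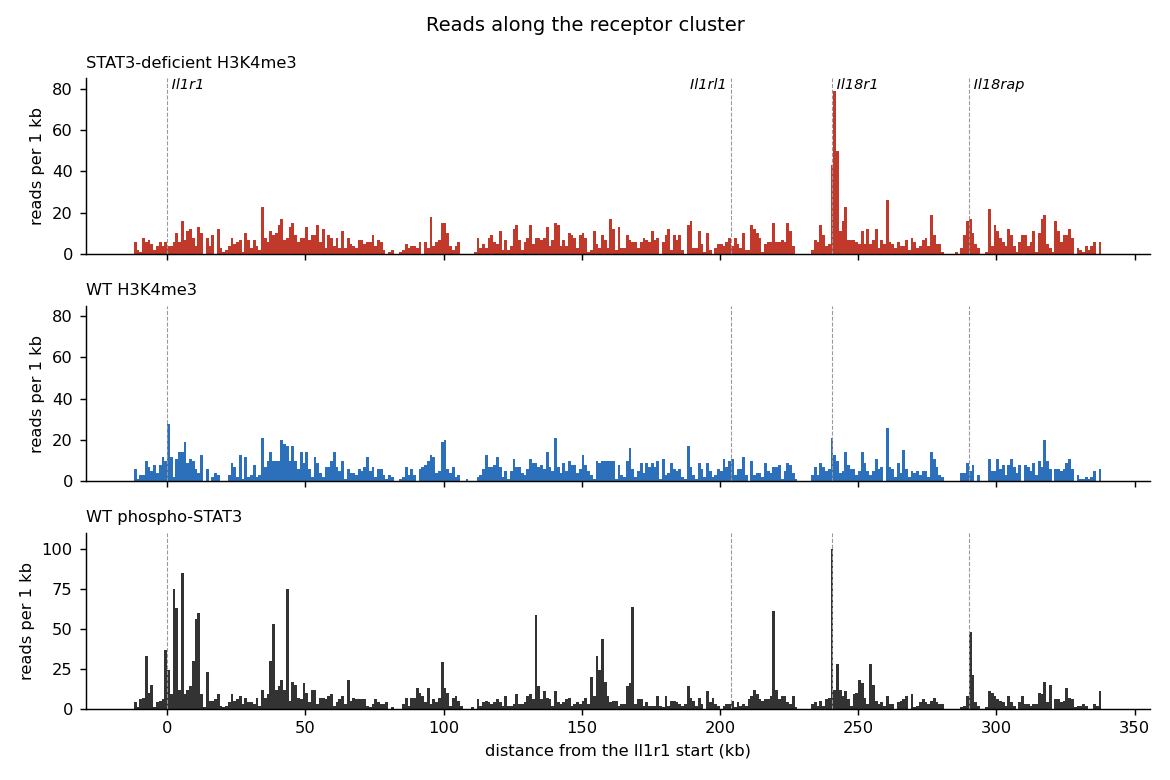
Reads per 1 kb window along the cluster in the STAT3-deficient H3K4me3, WT H3K4me3 and WT phospho-STAT3 libraries, by distance from the Il1r1 start in kb; dashed lines mark the starts of 4 genes. The tallest STAT3-deficient H3K4me3 window (79 reads) is in Il18r1, the tallest WT H3K4me3 window (28 reads) is at Il1r1, and phospho-STAT3 peaks stand along the whole interval.

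Il18r1, the ligand-binding chain of the IL-18 receptor, carried the only marked region of the cluster (at least 50 reads in both H3K4me3 libraries together). The region ran from 40522400 to 40524799, beginning at the Il18r1 start, and held 162 reads in the STAT3-deficient library and 38 in the WT library. The STAT3-deficient library thus held 67.5 reads per kb there and the WT library 15.8, against 6.37 and 6.06 per kb in the cluster outside regions and gene starts. With ratios scaled so that the median of marked regions is 0, the log2 ratio was 1.80 (95% interval 1.28 to 2.35). By library totals it was 2.12 (1.60 to 2.67). The region passed the size rule, being 2-fold or more apart with an interval that leaves out 0, as did 1.01% of the 10971 marked regions in this direction and 1.16% in the other. By library totals those shares were 2.91% and 0.492%. It ranked 21 of 10971 by ratio and 18 by the lower bound of its interval. No 200 bp window of the region held more than 7 WT reads. Each window thus needed STAT3-deficient reads to reach the minimum of 12, so the calling favoured a high ratio and high ranks here. In amount of the mark the region ranked 2684 by reads of both libraries. With regions called on the WT library alone, the region shrank to its first 400 bp with 31 STAT3-deficient and 14 WT reads, a log2 ratio of 0.94 (-0.01 to 1.96). With 45 reads in both libraries together it was then no longer a marked region, and it missed the size rule. Within 1 kb of the Il18r1 start, 87 STAT3-deficient and 32 WT reads gave a log2 ratio of 1.15 (0.55 to 1.78). Within 500 bp of the start the log2 ratio was 0.70, under 2-fold.

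The region was divided into its first 200 bp and the rest after its values were seen. Its first 200 bp, under the phospho-STAT3 site described below, held 11 STAT3-deficient and 7 WT reads, a log2 ratio of 0.36 (-1.14 to 1.96). The remaining 2200 bp held 151 STAT3-deficient and 31 WT reads, a log2 ratio of 1.99 (1.42 to 2.60). The intervals of both stretches overlap, so an uneven ratio along the region is not shown. The STAT3-deficient summit lay 600 to 799 bp after the start, with 26 reads against 5 in the WT library. A second rise from 1800 to 2399 bp held 39 STAT3-deficient reads against 9. Before the start, 2 kb held 12 STAT3-deficient and 16 WT reads, both near the background of 12.7 and 12.1. After the region the excess ran on at a lower level, with 64 STAT3-deficient and 30 WT reads over 4 kb, a log2 ratio of 0.80 (0.15 to 1.47).

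**Figure D2:**
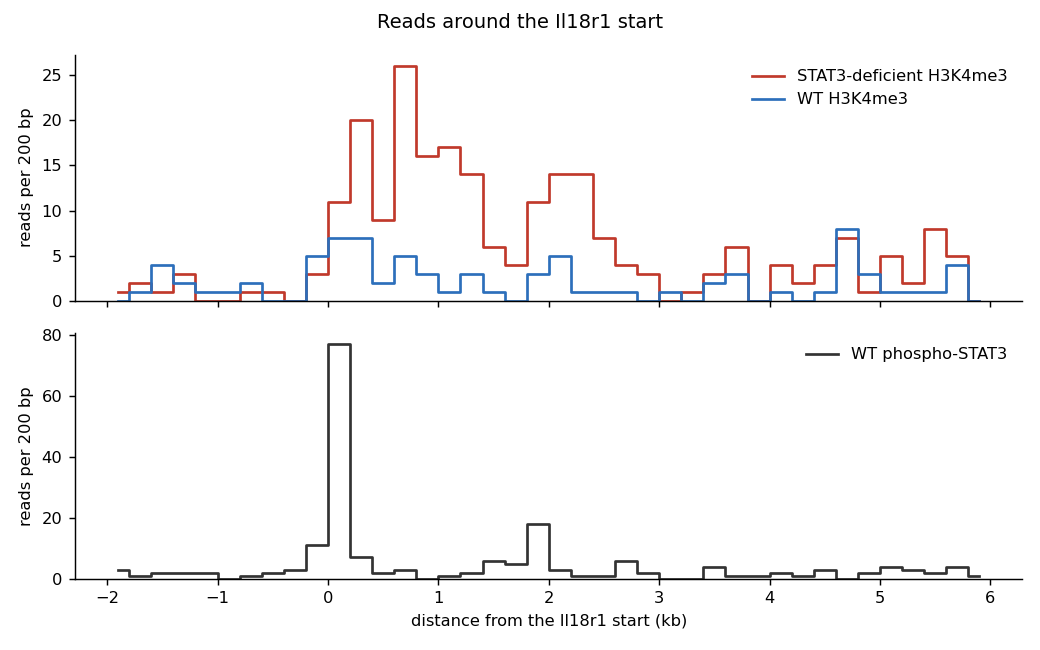
Reads per 200 bp window from 2 kb before to 6 kb after the Il18r1 start, by distance in kb: STAT3-deficient and WT H3K4me3 in the upper panel, WT phospho-STAT3 in the lower panel. The phospho-STAT3 reads concentrate in the first window (77 reads), and the STAT3-deficient H3K4me3 reads are highest 600 to 799 bp after the start (26 reads, against 5 in WT).

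Il1r1, the IL-1 receptor, showed the reverse. Within 1 kb of its start, 10 STAT3-deficient and 38 WT reads were counted, where the background of the cluster would give 12.7 and 12.1. Only the WT library thus exceeded its mean background. Scaled by marked regions the log2 ratio was -2.22 (-3.39 to -1.19), 4.67-fold lower in the STAT3-deficient library, and it was -1.90 (-3.07 to -0.87) by library totals. The first 200 bp after the start held 0 STAT3-deficient reads, for which a one-sided 95% limit allows up to 3, and 11 WT reads. The first 1 kb held 4 and 28. WT windows elsewhere in the cluster came close to this. The 1 kb windows from 40381000, 40382000 and 40542000, picked for being high, held 19, 20 and 26 WT reads. The STAT3-deficient library held 15, 15 and 26 reads in them. Pooled reads at the Il1r1 start were too few for a region to be called, so fixed windows of 2 kb were used to describe it. Of 96268 such windows of the genome with at least 40 reads, 6.78% were lower by the size rule with the scaling by marked regions and 1.72% by library totals. In the other direction 0.472% and 1.68% were higher. With regions called on the WT library alone, a choice that favours places high in WT, a region from 40281800 to 40283399 held 6 STAT3-deficient and 44 WT reads.

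A second stretch of Il1r1 lay further in. RefSeq gives Il1r1 a second start 41.5 kb after the first in GRCm38.p6. Whether the spacing is the same in mm9 was not tested. From 41 to 44 kb after the mm9 start, a stretch chosen after its values were seen, there were 32 STAT3-deficient and 55 WT reads. The background of the cluster would give 19.1 and 18.2. The log2 ratio was -1.08 (-1.75 to -0.42), and -0.76 (-1.43 to -0.10) by library totals, so the size rule was met under the first scaling and missed under the second. A small region elsewhere in Il1r1, from 40316200 to 40316599, held 16 STAT3-deficient and 15 WT reads. Its log2 ratio of -0.20 (-1.31 to 0.92) was not distinguishable from 0 at this depth.

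Il18rap, the accessory chain of the IL-18 receptor, had 33 STAT3-deficient and 14 WT reads within 1 kb of its start, 49.6 kb after that of Il18r1. Here the STAT3-deficient library exceeded the mean background of 12.7 reads and the WT library was close to its 12.1. Windows away from regions and starts could be as high. The 1 kb windows from 40598000 and 40599000, picked for being high, held 17 and 19 STAT3-deficient and 7 and 20 WT reads. Those on each side of the Il18rap start held 16 and 17 STAT3-deficient and 9 and 5 WT reads. Within 1 kb of the Il18rap start the log2 ratio was 0.94 (-0.00042 to 1.96), short of the size rule. By library totals it was 1.26 (0.32 to 2.28), which passed it. No region was called at Il18rap.

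Il1rl1, the IL-33 receptor, held 12 STAT3-deficient and 21 WT reads within 1 kb of its start. The log2 ratio of -1.10 (-2.26 to -0.01) became -0.78 (-1.94 to 0.31) by library totals. It thus met the size rule under the first scaling alone. With 33 reads in both libraries the window lies under the minimum of 40 set for the genome-wide windows, and no call is read from it. The position of the Il1rl2 start was not given on mm9. In GRCm38.p6 it lies 8.39 kb after the end of Il1r1. In mm9, a small region from 40382000 to 40382399, 8.0 to 8.4 kb after the end given for Il1r1, held 14 STAT3-deficient and 18 WT reads. That end is approximate, so the distance cannot place the Il1rl2 start in this region. The log2 ratio of the region was -0.66 (-1.78 to 0.43), and whether it is the start of Il1rl2, the IL-36 receptor gene, was not tested. With regions called on the WT library alone it was longer, from 40381400 to 40382399, and a marked region. There 27 STAT3-deficient and 32 WT reads gave a log2 ratio of -0.45 (-1.25 to 0.33). The last region, inside Il18r1 from 40542200 to 40542599, held 19 STAT3-deficient and 23 WT reads, with a log2 ratio of -0.57 (-1.53 to 0.37). It lay 19.8 kb after the Il18r1 start, and its interval does not overlap that of the region at the start.

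**Figure D3:**
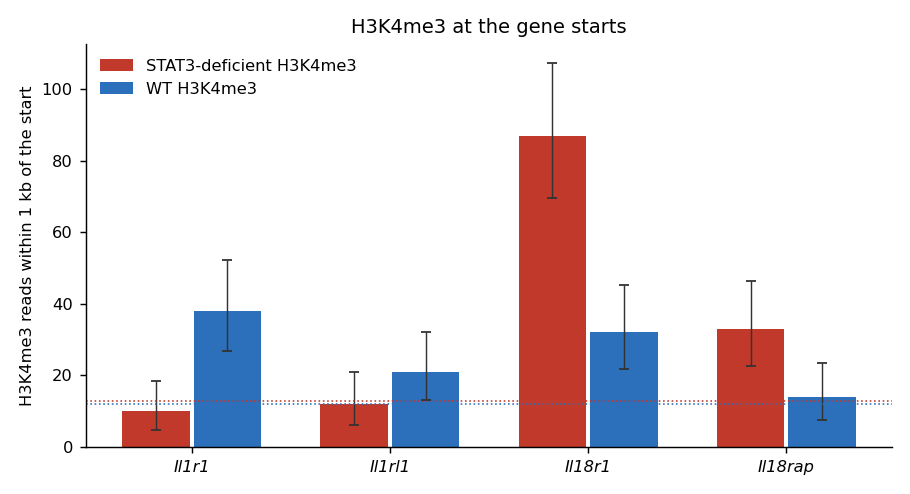
H3K4me3 reads within 1 kb of 4 gene starts in the STAT3-deficient (left bars) and WT (right bars) libraries; error bars are exact Poisson 95% intervals and dotted lines the background of each library. Il18r1 (87 against 32) is higher in STAT3-deficient cells and Il1r1 (10 against 38) is lower, while Il18rap (33 against 14) passed the size rule by library totals alone.

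Seen within each library, the order of the genes differed. All windows were 1 kb on each side of a start, so the reads compare genes over the same length. Il1rl2 is left out of this order, because its start was not given on mm9. In STAT3-deficient cells Il18r1 led with 87 reads (exact Poisson interval 69.7 to 107.3), followed by Il18rap with 33 (22.7 to 46.3), Il1rl1 with 12 (6.20 to 21.0) and Il1r1 with 10 (4.80 to 18.4). Only the last pair of neighbours in that order had overlapping intervals. In WT cells Il1r1 came first with 38 reads (26.9 to 52.2), before Il18r1 with 32 (21.9 to 45.2), Il1rl1 with 21 (13.0 to 32.1) and Il18rap with 14 (7.65 to 23.5). There every pair of neighbours overlapped, and only the intervals of Il1r1 and Il18rap were apart.

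**Figure D4:**
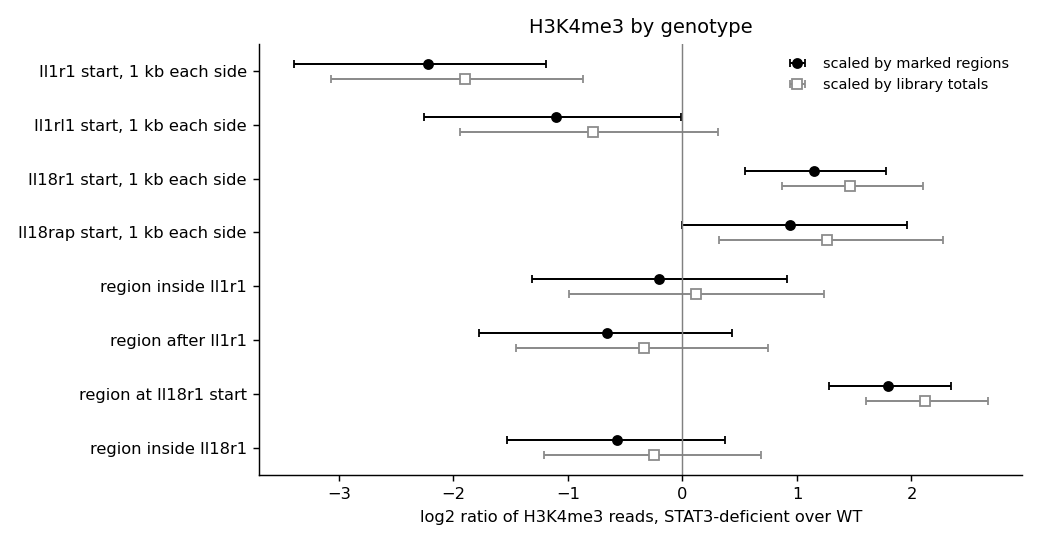
Log2 ratio of H3K4me3 reads, STAT3-deficient over WT, at 4 gene starts (1 kb on each side) and in the 4 H3K4me3 regions of the cluster, with exact 95% intervals for counting error; filled circles are scaled by marked regions and open squares by library totals. The region at the Il18r1 start (1.80) lies above 0 and the Il1r1 start (-2.22) below 0 under both scalings, while the intervals of the other 3 regions include 0.

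Reads between the peaks also differed along the cluster. Outside regions and gene starts, the stretch of Il1r1 held 595 STAT3-deficient and 613 WT reads, a log2 ratio by library totals of -0.02 (-0.18 to 0.15). The stretch between Il1r1 and Il1rl1, which holds Il1rl2, was similar, with 703 and 725 reads and a ratio of -0.02 (-0.17 to 0.13). In the stretches from Il1rl1 on, the STAT3-deficient library held more: 207 against 158 reads in Il1rl1, a ratio of 0.41 (0.11 to 0.72), 292 against 240 in Il18r1, a ratio of 0.31 (0.06 to 0.56), and 314 against 253 from the Il18rap start to the end of the interval, a ratio of 0.34 (0.09 to 0.58). In Il18r1 this includes the 4 kb after the region at its start. Without them 228 STAT3-deficient and 210 WT reads remained, a ratio of 0.14 (-0.13 to 0.42) that is not distinguishable from 0 at this depth. The scaling by library totals is used for these sums because most of their reads are background. With the scaling by marked regions, each of these ratios is lower by 0.32. The intervals of the stretches from Il1rl1 on then include 0. Those of Il1r1 and of the stretch between Il1r1 and Il1rl1 then lie below 0. The direction of these differences thus depends on the scaling.

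The phospho-STAT3 sites are places of read enrichment over the local density in WT cells, without an input control analysed here. The cluster was dense in them: its 17 sites amount to 48.6 per Mb, against 10.2 per Mb in the genome. Of 7335 genome windows of 350 kb, 2.44% held 17 sites or more. Strong sites are those whose excess over the local expectation is in the top 25% of all sites, which means 26.1 reads or more. By this measure 11 of the 17 sites were strong, and 0.300% of the windows of the genome held 11 or more. The cluster thus ranked higher in strong sites than in sites of any strength. For H3K4me3 it stood nearer the middle: 23.2% of windows held at least its 4 regions, and 47.5% at least its 1 marked region.

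**Figure D5:**
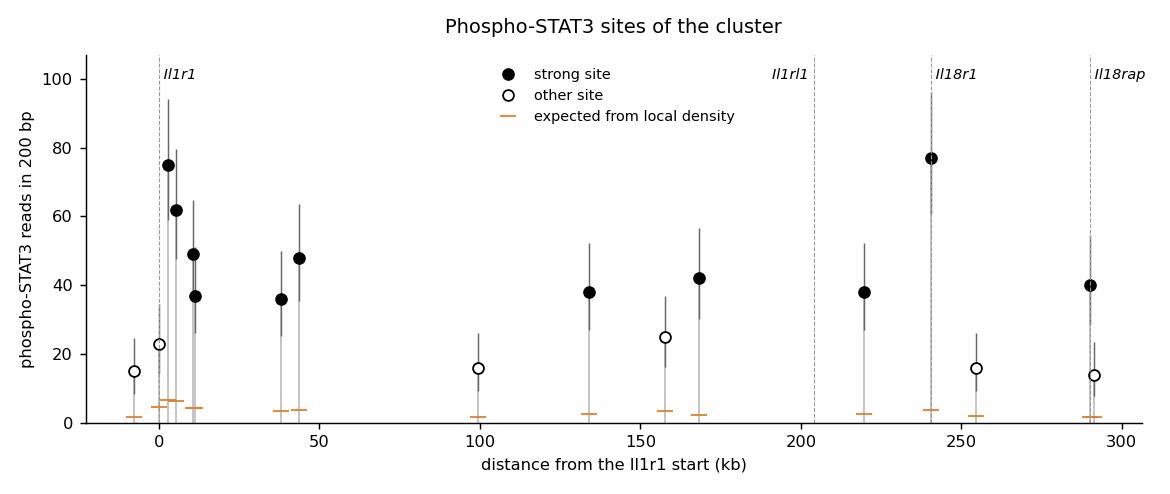
Phospho-STAT3 reads in the highest 200 bp window of each of the 17 sites, by distance from the Il1r1 start in kb, with exact Poisson 95% intervals; filled circles are strong sites and orange dashes the local expectation. Sites crowd in the first 11.2 kb of Il1r1, and the tallest stands at the Il18r1 start (77 reads).

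The site with the most reads was at the Il18r1 start, from 40522250 to 40522699, centred 99 bp after it. It held 77 phospho-STAT3 reads (60.8 to 96.2) in its highest 200 bp, 40 on the plus and 37 on the minus strand, 21.0-fold over the local expectation. The same 200 bp held 11 STAT3-deficient and 7 WT H3K4me3 reads, above the 1.27 and 1.21 that the background of the cluster would give and the most of the 17 sites in either H3K4me3 library. This site ranked 434 of 26908 by excess. It stands at the edge of the H3K4me3 region described above, at about the place where the region begins.

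Il1r1 held the most phospho-STAT3 sites of the genes of the cluster, with 6 inside it, all strong. At 92.0 kb, Il1r1 was also longer than the stretches of Il18r1 (49.6 kb), Il18rap (48.0 kb) and Il1rl1 (36.4 kb). The 4 sites in its first part lay 2.95, 5.40, 10.5 and 11.2 kb after the start and held 75, 62, 49 and 37 reads. The first of these, from 40284750 to 40285149, ranked 535 of all sites, and its 75 reads (59.0 to 94.0) cannot be told apart from the 77 at Il18r1. A further pair at 38.1 and 43.6 kb held 36 and 48 reads, the site of 48 reads within the second stretch of H3K4me3 of Il1r1. At the start itself, 101 bp before it, was a weaker site of 23 reads, 4.87-fold over a local expectation raised by its neighbours. Most Il1r1 sites were thus away from the gene start. Their reads in the STAT3-deficient and WT H3K4me3 libraries were few, 0 to 6 and 0 to 4 in the 6 sites inside the gene.

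At Il18rap a strong site of 40 reads (28.6 to 54.5) was centred 199 bp after the start and stood 23.3-fold over the local expectation, the highest fold of the 17 sites. A second site there, 1.35 kb after the start, held 14 reads. Il18r1 also had a weak internal site of 16 reads, 14.1 kb after its start. Inside Il1rl1 there was 1 site, strong, of 38 reads, 15.7 kb after the start, where the STAT3-deficient H3K4me3 library held 9 reads and the WT H3K4me3 library 1. No site was called within 500 bp of the Il1rl1 start, in contrast to Il18r1, Il18rap and Il1r1.

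Between Il1r1 and Il1rl1, a stretch of 112.0 kb that includes Il1rl2, the sites held 16, 38, 25 and 42 reads. The first, from 40381300 to 40381549, lies beside the small H3K4me3 region that follows Il1r1. The sites of 38 and 42 reads were strong and lay 70.1 and 35.7 kb before the Il1rl1 start. Per kb of all reads, phospho-STAT3 was highest in the Il1r1 stretch, at 12.1 reads, followed by the 12 kb before Il1r1 (10.75), and lower in that of Il18r1 (7.74), the stretch between Il1r1 and Il1rl1 (7.13), Il1rl1 (6.51) and Il18rap (6.04).

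The median gap between plus-strand and minus-strand read ends was 100.5 bp over the 17 sites, against 95.5 bp over 1346 sites taken at even intervals from the genome. The exception was the first site of the interval, with 15 reads, where the gap was -38 bp. None of the 17 was also called as a site in either H3K4me3 library. In the 200 bp windows of the sites the STAT3-deficient H3K4me3 library held 0 to 11 reads (median 2) and the WT H3K4me3 library 0 to 7 (median 1).

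Set side by side, among the gene starts given on mm9, those with a phospho-STAT3 site within 500 bp in WT cells were Il18r1, Il18rap and Il1r1. Il1rl2 is left out, because its start was not given on mm9. Whether the site of 16 reads that follows Il1r1 lies at the Il1rl2 start was not tested. In STAT3-deficient cells Il18r1 was higher in H3K4me3 under both scalings, Il18rap passed the size rule by library totals alone, and Il1r1 was lower under both. The Il1rl1 start, which had no site, held 33 reads in both libraries together, too few for a call to be read. Starts with a site thus included both directions, and the start without one gives no comparison. What the loss of STAT3 did to binding at these places was not measured, and binding and mark were each read from 1 library.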

How the data were processed

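Aligned reads of 3 ChIP-seq libraries were deposited by the authors, 1 line per read of 25 bp with position, strand and a match code. Per the submitters' processing notes the build was mm9 and SICER was used; aligner and versions: not given in the sources used here. No position and strand occurred more than once in a deposited file. Coordinates are those of the files. Whether they count from 0 or 1 was not settled, which can move a position by 1 bp.

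Reads were moved 75 bp towards the fragment centre. Calling of H3K4me3 regions used the sum of both H3K4me3 libraries (windows of 200 bp with at least 12 reads, joined across 600 bp, at least 2 windows). Ratios are STAT3-deficient over WT, scaled by the median of marked regions, with exact Clopper-Pearson 95% intervals. For phospho-STAT3 sites, 200 bp windows were moved by 50 bp. They needed 10 reads or more and reads on both strands. They also needed a Poisson p below 1e-08 given the genome-wide density or that of the surrounding 10 kb, whichever was greater. Gene positions on mm9 came with the definition of the cluster and are approximate. The members, lists and thresholds were chosen with earlier results of these data known. The callers were tested on simulated data. Python 3.11.15, numpy 2.4.6, scipy 1.17.1, pandas 2.3.3 and matplotlib 3.10.9 were used. The genes and sites named are the 5 receptor genes and the regions and sites of the interval. Alternatives tried were other scalings, read shifts, thresholds, gaps, windows and calling libraries.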

Additional observations from a re-analysis of the deposited data

How the results depend on the processing

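No paired analysis was possible because each group has 1 library. Of 106 values recomputed under alternatives, 93 stayed within the counting interval of the first value or, for counts, within 1.5 times of it, and no called value changed sign. At the Il18r1 region the log2 ratio was 0.94 in regions called on the WT library alone, where the region is shorter, and 2.35 with background subtracted. Calling on the WT library alone gave 0 higher and 1 lower marked regions in the cluster, the lower one at the Il1r1 start. Scaling by library totals moved the ratios of whole gene stretches to -0.069 in Il1r1, -0.030 between Il1r1 and Il1rl1, 0.31 in Il1rl1, 0.68 in Il18r1 and 0.38 in Il18rap, which follows from a shift of 0.32 common to all. With background subtracted, the Il1r1 stretch was -2.07, that between Il1r1 and Il1rl1 -2.99 and that of Il18r1 3.89, and the Il18rap start was 3.13, values that rest on few reads. No value was left at the Il1r1 and Il1rl1 starts, where the STAT3-deficient reads were below background, nor in the other stretches, and the counts were not rerun with background subtracted, which leaves no interval. With windows of at least 20 reads the 3 small regions were not called, and without read shift the one after Il1r1 was not. The number of phospho-STAT3 sites in the cluster ranged from 12 (p of 1e-12) to 25 (genome-wide density only). The windows of 2 kb after each start, the Il18r1 region without its first 200 bp and the Il18r1 stretch without the 4 kb after the region were chosen after seeing the data. Depth limits the gene starts, where 33 to 119 reads in both H3K4me3 libraries together were counted.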

Other observations

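The match code of each read, which no comparison above uses, showed no excess of mismatches in the cluster. Of reads starting there, 3.29% of STAT3-deficient H3K4me3, 3.72% of WT H3K4me3 and 3.83% of WT phospho-STAT3 reads had a mismatch to mm9, against 3.97%, 3.90% and 4.58% of all reads of the same libraries.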
